A study of Mus musculus with 8 samples.

Results

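The beta-defensin genes were followed in the ventral prostate of mice that carry a human SKP2 knock-in. They were the rows of the expression table whose gene symbol begins with Defb and a number, which gave 42 of 36333 genes. The ventral lobe is one of the prostate lobes of the mouse, and it was taken at an age of 12 months from 4 mice of each genotype, hSKP2-KI and WT, 1 library per mouse. WT mice were FVB/N wild type. In the hSKP2-KI mice, a P2A peptide and the human SKP2 coding sequence stood in exon 1 of the endogenous probasin gene (Pbsn), so that SKP2, the F-box subunit of an SCF ubiquitin ligase, was driven by the probasin promoter in prostate epithelium. These males came from heterozygous females crossed with FVB/N wild-type males, and which founder line was sequenced is not given in the sources used here. Values are TPM, a transcript unit in which reads are divided by transcript length and every library sums to 1000000, so a level in one gene may be set beside a level in another.

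Beta-defensins are small cationic peptides secreted by epithelia. They fold around 6 cysteines joined in disulfide bonds, disturb bacterial membranes, and can act on chemokine receptors of leukocytes. Their genes lie in a few clusters, and in the male reproductive tract many of them are known from the epididymis, where they coat sperm.

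The coding sequences of the 5 members that could be tested are shown because Defb50 and Defb1 made up nearly all beta-defensin transcripts, Defb2 and Defb10 share long stretches that touch how their reads are assigned, and Defb28 was the member that fell. They were read from the GENCODE transcripts of GRCm38, a C57BL/6J reference and not the FVB/N strain, run from start to stop codon, and carry the cysteine codons in capitals.
Defb50, chr8:21823539-21831296, plus strand, 2 exons: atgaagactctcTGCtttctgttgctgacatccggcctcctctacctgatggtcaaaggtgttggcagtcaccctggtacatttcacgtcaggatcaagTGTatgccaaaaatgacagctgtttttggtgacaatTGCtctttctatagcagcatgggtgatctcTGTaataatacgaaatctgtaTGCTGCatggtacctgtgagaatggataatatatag
Defb1, chr8:21776599-21795185, plus strand, 2 exons: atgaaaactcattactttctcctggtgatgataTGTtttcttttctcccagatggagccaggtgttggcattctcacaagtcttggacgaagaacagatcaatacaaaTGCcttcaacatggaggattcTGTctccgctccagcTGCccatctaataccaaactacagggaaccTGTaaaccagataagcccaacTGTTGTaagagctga
Defb2, chr8:21839926-21843482, plus strand, 2 exons: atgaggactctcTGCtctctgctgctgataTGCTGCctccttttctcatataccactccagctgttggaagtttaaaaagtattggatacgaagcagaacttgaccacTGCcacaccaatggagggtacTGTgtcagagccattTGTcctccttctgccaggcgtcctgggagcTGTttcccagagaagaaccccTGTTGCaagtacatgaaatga
Defb10, chr8:21858901-21862011, plus strand, 2 exons: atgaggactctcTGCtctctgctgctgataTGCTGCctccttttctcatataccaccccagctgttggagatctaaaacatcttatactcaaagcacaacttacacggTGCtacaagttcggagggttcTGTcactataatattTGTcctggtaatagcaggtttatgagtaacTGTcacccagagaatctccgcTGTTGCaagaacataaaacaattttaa
Defb28, chr2:152518255-152521447, plus strand, 3 exons: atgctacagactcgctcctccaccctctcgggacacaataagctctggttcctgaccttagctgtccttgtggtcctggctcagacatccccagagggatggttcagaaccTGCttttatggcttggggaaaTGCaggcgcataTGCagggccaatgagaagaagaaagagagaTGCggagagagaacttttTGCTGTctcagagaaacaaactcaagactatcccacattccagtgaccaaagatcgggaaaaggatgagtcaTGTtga

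Of the 42 members, 33 hold the 6 cysteine codons at the usual distances, with 6, then 3 or 4, then 9, then 4 to 7, then 0 codons between neighbours. Defb50 is 1 of the 9 that do not. Its 73 codons hold 6 cysteine codons, separated by 28, 11, 9, 6 and 0 codons, so the last part has the usual distances and the first does not. Defb1 has 69 codons, Defb2 71, Defb10 73 and Defb28 89. Coding sequence identity was 72.1% between Defb2 and Defb10 and 52.9% between Defb1 and Defb50. The longest exact stretch that the Defb50 transcript shared with another member was 12 bases, and that of Defb1 was 15 bases. Defb2 shared 102 bases with Defb11, and Defb10 shared 83 bases with both Defb2 and Defb11, so the levels of Defb2 and Defb10 are uncertain wherever reads fell in those stretches.

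The genotype labels were checked first. Skp2, on whose row human SKP2 reads may also be counted, lay at 37.3 to 60.6 TPM in the hSKP2-KI mice and at 1.05 to 2.27 TPM in WT mice, and Pbsn lay at 93.0 to 174 TPM and 3980 to 9232 TPM. TPM carries no read counts, and the sequencing depth of a library cannot be read from it. A value of 0 is given as listed, since 5 of 5 mitochondrial genes examined were also listed at 0 in all 8 samples. Sbp, Spink1 and Sbpl, the main secretory transcripts of the ventral lobe, summed to 321196 to 343438 TPM in the hSKP2-KI mice and 404156 to 458469 TPM in WT mice. The luminal keratins Krt8 and Krt18 were at 434 to 559 TPM and 507 to 663 TPM over the 8 samples. Of 12 epididymal markers, 8 were at 0 in all samples, among them Lcn5, Lcn8 and Lcn9. The 12 summed to 7.63 to 14.9 TPM in the hSKP2-KI mice and 3.59 to 8.84 TPM in WT mice. Adam28 held most of this, at 7.61 to 14.6 and 3.45 to 5.96 TPM. Crisp1 was at 3.74 TPM in WT replicate 4 and at most 1.12 TPM elsewhere. Adam7 was at 0.146, 0.367, 0.396 and 0 TPM in WT replicates 1 to 4 and at 0.0257 to 0.128 TPM in the hSKP2-KI mice. Rnase10 was at 0.0584 TPM in hSKP2-KI replicate 2 and listed at 0 elsewhere. The 8 seminal vesicle markers summed to at most 0.666 TPM. Tgm4, a marker of the neighbouring coagulating gland, reached 77.5 TPM in hSKP2-KI replicate 1 and 4.99 to 6.74 TPM in the other hSKP2-KI replicates, against 1.06 to 2.16 TPM in WT mice.

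Of the 42 beta-defensin genes, 20 were above 0 TPM in at least 1 sample and 22 (52.4%) were listed at 0 in all 8, against 34.4% of all genes in the table. Only 7 reached 1 TPM in any sample, namely Defb50, Defb1, Defb2, Defb10, Defb28, Defb29 and Defb37, and the first 4 of these reached it in all 8. The levels ran over several orders of magnitude, from 29212 TPM for Defb50 to below 1 TPM. All 20 detected members were above 0 in at least 1 WT mouse, and 12 of them in at least 1 hSKP2-KI mouse. Counted by sample, 7, 5, 9 and 7 members were above 0 in hSKP2-KI replicates 1 to 4 and 12, 14, 9 and 12 in WT replicates 1 to 4. The ranges meet at 9, which was the count of both hSKP2-KI replicate 3 and WT replicate 3. Detection by genotype was not counted over all genes, so these counts are given as a description.

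**Figure D1:**
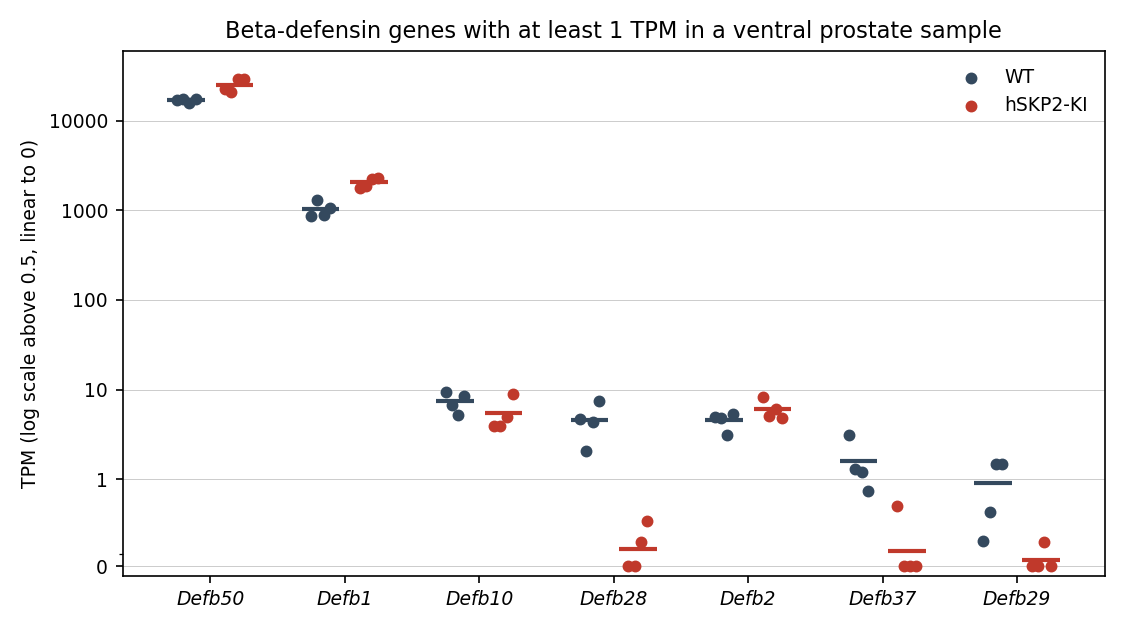
TPM of the 7 beta-defensin genes that reached 1 TPM, with 1 point per mouse (n = 4 per genotype) and a line at each mean, on an axis that is logarithmic above 0.5 TPM and linear from there to 0. Defb50 and Defb1 were higher in every hSKP2-KI mouse than in any WT mouse, Defb28, Defb29 and Defb37 were lower in every hSKP2-KI mouse, and Defb2 and Defb10 overlapped.

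Defb50 was among the most abundant transcripts of the whole tissue. Its level was 22228, 20567, 28813 and 29212 TPM in hSKP2-KI replicates 1 to 4 and 17001, 17446, 15490 and 17260 TPM in WT replicates 1 to 4. All hSKP2-KI mice were above all WT mice, and hSKP2-KI replicates 3 and 4 stood above the other two. It ranked 4th among all genes in each hSKP2-KI mouse and in WT replicate 2, and 5th in the other 3 WT mice. The mean was 25205 ± 4451 TPM (SD, n = 4) in the hSKP2-KI mice and 16799 ± 892 TPM (SD, n = 4) in WT mice, a ratio of 1.50. In bulk tissue, more cells of a type and more RNA per cell cannot be told apart.

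Defb1, the counterpart of human beta-defensin 1 and a constitutive antimicrobial peptide of many epithelia, was the second in level. It lay at 1748, 1879, 2256 and 2290 TPM in hSKP2-KI replicates 1 to 4 and at 871, 1305, 882 and 1050 TPM in WT replicates 1 to 4. Again the genotypes did not overlap. Its rank among all genes was 18th to 31st in the hSKP2-KI mice and 41st to 80th in WT mice. The means were 2043 ± 271 TPM and 1027 ± 202 TPM (SD, n = 4 each), a ratio of 1.99.

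Differences were tested with limma on log2(TPM + 1) over the 13080 genes that had at least 1 TPM in at least 4 samples, with Benjamini-Hochberg adjustment over all of them and a threshold of 0.05. A fold change on this scale is understated for genes near 1 TPM. By this test, 33.9% of all genes were called, 32.7% higher and 1.23% lower in the hSKP2-KI mice, and the median log2 fold change of all genes tested was 0.23. The filter left 5 of the 42 members. Defb1 rose by 1.00 (SE 0.14, adjusted p = 0.0015, n = 4 per genotype, limma) and Defb50 by 0.57 (SE 0.16, adjusted p = 0.021, limma). Defb28 fell by 2.22 (SE 0.26, adjusted p = 0.000638, limma). Defb2 and Defb10 were not called. Relative to the median of all genes, the differences were 0.77 for Defb1 and 0.34 for Defb50, and 97.7% and 87% of the genes tested had lower fold changes. Being called higher was thus common among all genes. For Defb28, 0.0688% of the genes tested had a lower fold change. Defb28 passed the filter through its WT values only, so this place among the genes is a description and no support.

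The call for Defb50 depended on how the libraries were scaled. After median-ratio scaling, which sets the median ratio between libraries to 1 and under which 11.2% of all genes were called, Defb50 differed by 0.30 (SE 0.21, adjusted p = 0.392, limma) and the genotypes overlapped, since WT replicate 1 moved to 20531 and hSKP2-KI replicate 2 to 18537. Defb1 still rose, by 0.73 (SE 0.13, adjusted p = 0.00862, limma), and the scaled values of 1638 to 2057 in the hSKP2-KI mice and 986 to 1322 in WT mice did not overlap. Defb28 fell by 2.35 on the same scale (adjusted p = 0.00191, limma). The summed TPM of Sbp, Spink1 and Sbpl was lower in every hSKP2-KI mouse than in any WT mouse, and with TPM rescaled over all but the 20 most abundant genes Defb50 differed by 0.32 (adjusted p = 0.247, limma) and Defb1 by 0.75 (adjusted p = 0.0101, limma). Defb50 was also not called without hSKP2-KI replicate 3 (adjusted p = 0.05), without hSKP2-KI replicate 4 (0.0538) or without WT replicate 1 (0.0554) in the limma fit.

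**Figure D2:**
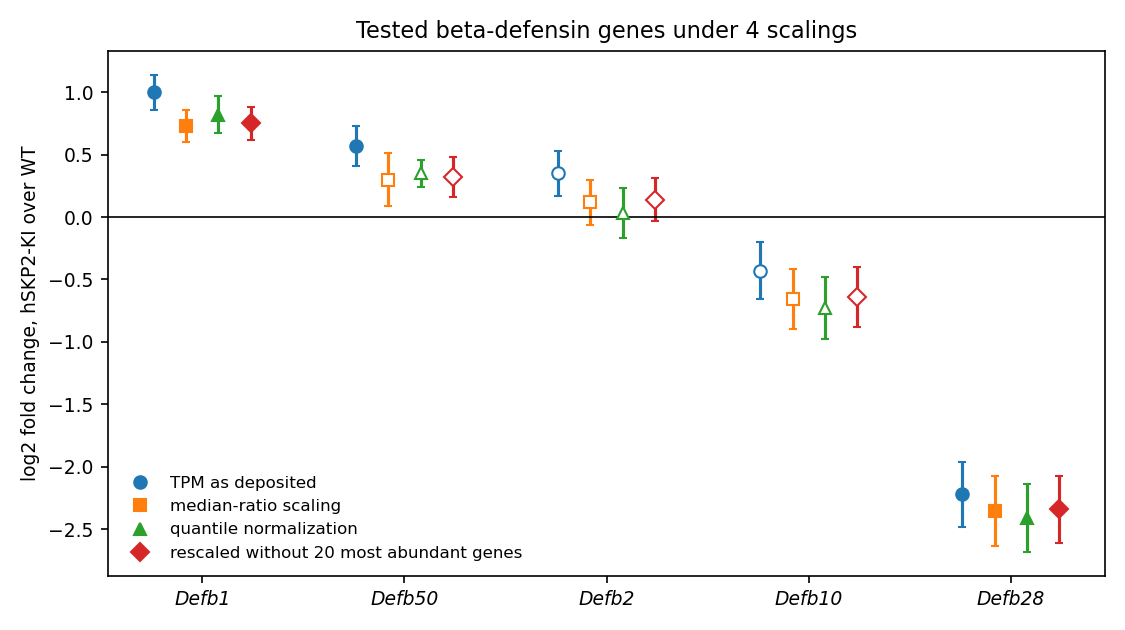
log2 fold change on the log2(TPM + 1) scale of the 5 tested beta-defensin genes, hSKP2-KI over WT (n = 4 each), with the SE, for TPM as deposited and under 3 other scalings; filled symbols have an adjusted p under 0.05. Defb1 and Defb28 were called under all 4, Defb50 with TPM as deposited only, and Defb2 and Defb10 under none.

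A ratio of the 2 abundant genes within a sample does not change when all genes of a library are divided by the same factor, as in median-ratio scaling. Quantile normalization is not of this kind and can change it. The log2 of Defb50 over Defb1 was 3.67, 3.45, 3.68 and 3.67 in hSKP2-KI replicates 1 to 4 and 4.29, 3.74, 4.13 and 4.04 in WT replicates 1 to 4. It was lower in every hSKP2-KI mouse than in any WT mouse, by 0.43 between the means (p = 0.0286 in a two-sided exact permutation test, which cannot give a smaller p with 4 against 4). Defb50 accordingly held 92.4% ± 0.546 of the summed beta-defensin TPM in the hSKP2-KI mice and 94.2% ± 0.871 in WT mice (SD, n = 4 each). This comparison was chosen after the values had been seen. The same test was also run on log2(TPM + 1) of each of the 20 members above 0 TPM. Defb1, Defb50, Defb28, Defb29 and Defb37 gave the same p there, and the p of the ratio was not adjusted for these tests.

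Summed over all 42 genes, beta-defensin transcripts reached 23989, 22455, 31081 and 31517 TPM in hSKP2-KI replicates 1 to 4 and 17895, 18767, 16388 and 18334 TPM in WT replicates 1 to 4. This was 2.73% ± 0.471 of all TPM in the hSKP2-KI mice and 1.79% ± 0.104 in WT mice (SD, n = 4 each). Without Defb50 and Defb1 the sum was lower in the hSKP2-KI mice. The other 40 genes together held 13.1, 9.24, 12.0 and 14.9 TPM in hSKP2-KI replicates 1 to 4 and 23.6, 16.6, 15.8 and 24.5 TPM in WT replicates 1 to 4, with no overlap. This separation depended on Defb28. It held 4.33 of the 15.8 TPM in WT replicate 3 and 0 of the 13.1 TPM in hSKP2-KI replicate 1, so without it the genotypes would overlap. The sum is thus no common direction of the 40 genes.

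**Figure D3:**
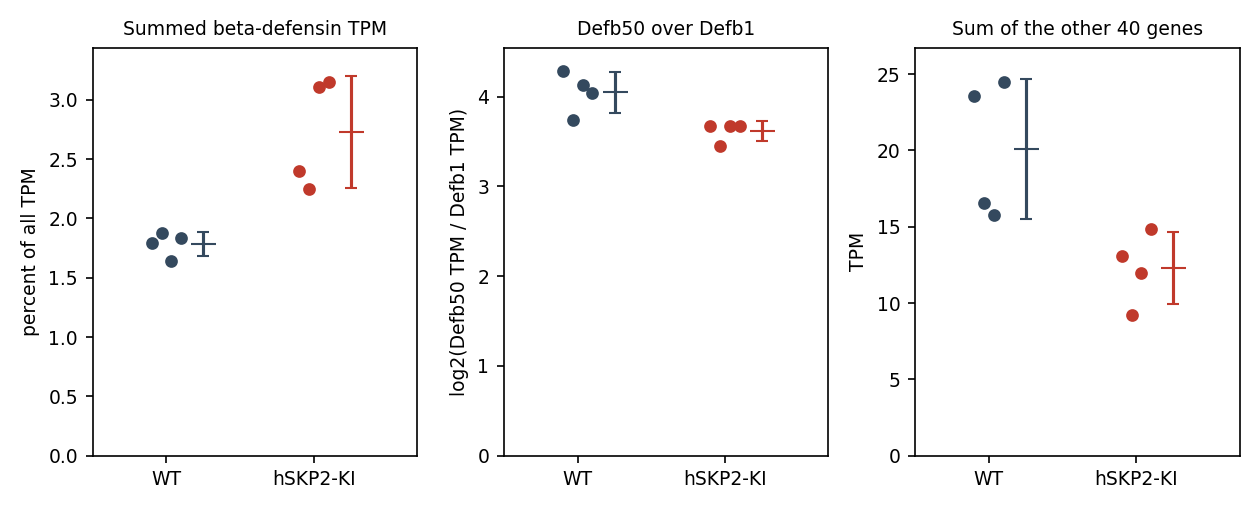
Each point is 1 mouse, with the mean and SD of each genotype (n = 4) beside the points. The summed beta-defensin TPM was 2.25% to 3.15% of all TPM in the hSKP2-KI mice and 1.64% to 1.88% in WT mice. The log2 ratio of Defb50 to Defb1 was lower in each hSKP2-KI mouse, and so was the summed TPM of the other 40 genes. Without Defb28 that last sum would overlap between genotypes.

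Defb2 and Defb10 lie next to Defb50 on chromosome 8 and were expressed at a few TPM in every mouse. Defb2, known as a peptide induced by bacterial lipopolysaccharide in the airway, lay at 8.19, 5.11, 6.14 and 4.87 TPM in hSKP2-KI replicates 1 to 4 and at 4.98, 4.77, 3.10 and 5.37 TPM in WT replicates 1 to 4. Defb10 lay at 3.89, 3.92, 4.92 and 8.97 TPM in hSKP2-KI replicates 1 to 4 and at 9.35, 6.72, 5.19 and 8.39 TPM in WT replicates 1 to 4. Both genes overlapped between genotypes. The log2 fold change was 0.35 for Defb2 (SE 0.18, adjusted p = 0.137, limma) and -0.43 for Defb10 (SE 0.23, adjusted p = 0.161, limma). That Defb10 was not called depended on 1 mouse, since without hSKP2-KI replicate 4 it fell by more, at -0.66 (adjusted p = 0.0275, limma). Without any other single sample it was -0.57 to -0.32 and not called.

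Defb28 and Defb29 are neighbours on chromosome 2 and were present mainly in WT mice. Defb28 was listed at 0, 0, 0.205 and 0.374 TPM in hSKP2-KI replicates 1 to 4 and at 4.68, 2.06, 4.33 and 7.39 TPM in WT replicates 1 to 4. The lowest WT mouse was several times above the highest hSKP2-KI mouse. Defb28 entered the test only through its WT values, so that a member with its pattern had to differ, and its call is no support for the members as a group. Defb29 was listed at 0 in all hSKP2-KI mice except replicate 3, at 0.201 TPM, and at 0.208, 0.449, 1.49 and 1.49 TPM in WT replicates 1 to 4, so the nearest mice of the 2 genotypes were almost equal. Defb26, the gene before Defb28, was listed at 0.131, 0.141 and 0.133 TPM in WT replicates 1 to 3 and at 0 in the other 5 samples.

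Defb37, in another cluster on chromosome 8, showed the same order. It was at 0.507 TPM in hSKP2-KI replicate 1 and listed at 0 in the other 3, and it was at 3.12, 1.29, 1.22 and 0.735 TPM in WT replicates 1 to 4. Neither Defb29 nor Defb37 passed the filter on low values. Both were lower in every hSKP2-KI mouse than in any WT mouse, which is given as a description, since both reached 1 TPM through WT mice only. With no filter, which let 23826 genes into the fit and called 14.3% of them, Defb37 differed by -1.15 (adjusted p = 0.0256, limma) and Defb29 by -0.79 (adjusted p = 0.055, limma), while Defb50 was no longer called (adjusted p = 0.401, limma). Among the 7 genes with at least 1 TPM, 5 thus had no overlap between genotypes, 2 higher and 3 lower in the hSKP2-KI mice, beside 35.1% of all genes tested. With so few genes, no share is read from this.

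The promoter table of RefSeq (GRCm38.p6) had an entry for 29 of the 42 members. Of the 3 members that were called, Defb28 had one, and the 300 bases that reach across its annotated start are shown. Defb28 promoter, chr2:152518005-152518304, plus strand: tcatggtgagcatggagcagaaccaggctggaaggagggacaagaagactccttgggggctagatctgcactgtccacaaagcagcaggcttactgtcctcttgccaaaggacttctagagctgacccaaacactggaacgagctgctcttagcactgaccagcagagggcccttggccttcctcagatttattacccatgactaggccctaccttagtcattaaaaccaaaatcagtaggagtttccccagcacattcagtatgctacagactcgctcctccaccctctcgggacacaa
It holds neither the letters TATAAA nor the letters AGAACA, a half-site of steroid receptors, on either strand. Of 32851 promoters of this length in the table, 13.6% hold the first and 19% the second. Defb50 and Defb1 are named only.

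The remaining 13 detected members stayed below 1 TPM in every sample. They were Defb11, Defb14, Defb15, Defb20, Defb22, Defb23, Defb25, Defb26, Defb36, Defb42, Defb43, Defb47 and Defb48, with highest values from 0.105 TPM for Defb47 to 0.576 TPM for Defb25. Of these 13, 7 were above 0 in 1 sample only and 6 in 2 or more. By genotype, 8 were above 0 in WT mice only, 5 in both and 0 in hSKP2-KI mice only. With a limit of 0.1 TPM over all 42 members, 8 were seen in WT mice only and 1 in hSKP2-KI mice only. This split was not counted over all genes, so it is given as a description. At these levels the table does not give how many reads stood behind a value. Defb14, the counterpart of human beta-defensin 3, reached 0.232 TPM in hSKP2-KI replicate 1 and at most 0.0473 TPM elsewhere. Defb3, known to be induced by bacterial infection in airway epithelium, was listed at 0 in all 8 samples.

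By position, the 42 genes fell into 6 runs in which neighbouring members lay within 500000 bases, with 11 members on chromosome 2, 5 on chromosome 14, 2 on chromosome 1, and 14, 1 and 9 on chromosome 8. The 4 genes that reached 1 TPM in every mouse were consecutive. Defb1, Defb50, Defb2 and Defb10 are the first 4 of the 9 genes in the run at chr8:21776555-21948622 (RefSeq, GRCm38.p6), with 28353, 8629 and 15418 bases between them. Of the 5 genes that follow, Defb9, Defb35 and Defb13 were listed at 0 in all samples, and Defb11 and Defb15 reached at most 0.263 and 0.261 TPM. The mean levels of the first 4 were nevertheless far apart, with Defb50 at 16799 ± 892 TPM and its neighbour Defb2 at 4.56 ± 1.00 TPM in WT mice (SD, n = 4). In the run of 14 on chromosome 8, Defb37 was the only member with at least 1 TPM. In the run on chromosome 2, Defb28 and Defb29 reached 1 TPM, and the next 3 members, Defb21, Defb19 and Defb45, were listed at 0.

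**Figure D4:**
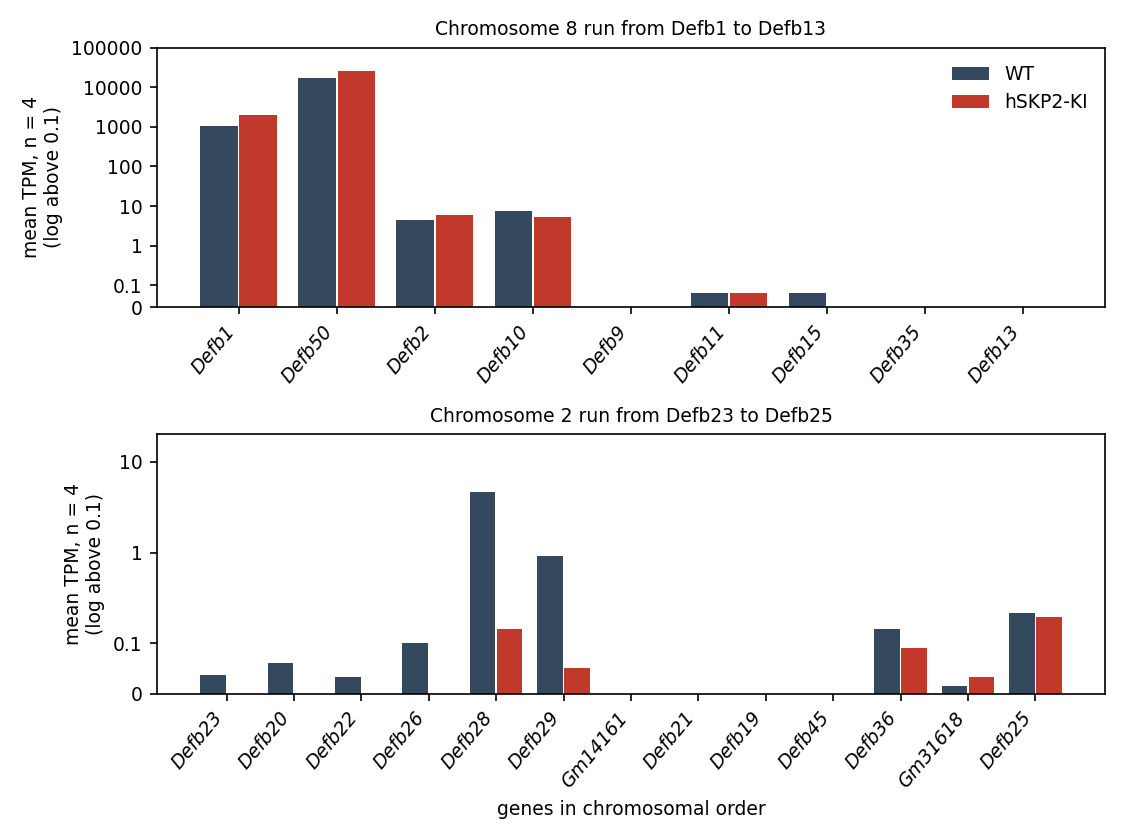
Mean TPM by genotype (n = 4 each) of the genes in chromosomal order, for the run of 9 on chromosome 8 and the run of 11 on chromosome 2, which also holds 2 other genes, on axes that are logarithmic above 0.1 TPM and linear from there to 0. The 4 genes that reached 1 TPM in all mice stand together at one end of the first run, and Defb28 and Defb29 stand together in the second.

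The genes that flank the runs, 3 on each side, numbered 36, and genes inside a run were not counted. Of the 36, 6 could be tested and 3 were called, all higher in the hSKP2-KI mice, beside 33.9% of all genes tested. Rem1, which encodes a small GTP-binding protein and lies beside the run on chromosome 2, rose by 0.78 (SE 0.11, adjusted p = 0.0015, limma). Zcchc3 rose by 0.48 and AY761184, near Defb1, by 0.92 (adjusted p = 0.00773 and 0.0245, limma). After median-ratio scaling only Rem1 of the 3 was called. Rem1 was thus higher where Defb28 and Defb29, on the same stretch of chromosome 2, were lower.

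Of a list of 40 other host-defence genes, 37 were in the table, 12 could be tested, and 7 were called, 6 higher and 1 lower. The shares over all genes tested were 32.7% higher and 1.23% lower. The list's median log2 fold change was 1.21, beside 0.23 for all genes tested. Wfdc2, a secreted protein with whey acidic protein domains, lay at 249, 124, 83.3 and 236 TPM in hSKP2-KI replicates 1 to 4 and at 27.2, 38.2, 45.0 and 45.1 TPM in WT replicates 1 to 4, and rose by 2.01 (SE 0.31, adjusted p = 0.00215, limma). The peptidoglycan-binding protein Pglyrp1 rose by 1.45 and the ribonuclease Rnase4 by 1.11 (adjusted p = 0.00798 and 0.00184, limma). Lcn2, which binds bacterial siderophores, rose by 0.72, lactoferrin (Ltf) by 1.40 and the macrophage lysozyme Lyz2 by 1.31 (adjusted p = 0.0112, 0.0168 and 0.0229, limma). Nupr1, a nuclear stress-response protein and not a secreted peptide, fell by 0.74 (adjusted p = 0.0143, limma). After median-ratio scaling 4 were called, namely Wfdc2, Pglyrp1, Rnase4 and Nupr1. Among markers of other cells, 4 urothelial markers summed to 720 to 1014 TPM in the hSKP2-KI mice and 398 to 662 TPM in WT mice. Upk1a alone was at 651 to 984 and 390 to 648 TPM. Upk2 and Upk3a were highest in hSKP2-KI replicate 4, at 13.6 and 12.5 TPM, and reached at most 4.8 and 0.312 TPM elsewhere. Upk1a, Upk1b and Upk2 could be tested and were called higher. After median-ratio scaling Upk1b and Upk2 were called and Upk1a was not (adjusted p = 0.0121, 0.0314 and 0.298, limma). The 4 basal epithelial markers summed to 293 to 425 and 196 to 305 TPM, and 2 were called higher, Krt14 by 0.72 and Krt15 by 0.60 (adjusted p = 0.0193 and 0.0122, limma). Krt5 and Trp63 were not called. After median-ratio scaling none of the 4 was called (adjusted p = 0.131 for Krt14 and 0.208 for Krt15, limma). The leukocyte marker Ptprc, at 3.72 to 7.76 and 1.60 to 5.29 TPM, overlapped and was not called (adjusted p = 0.0744, limma). None of the 7 neutrophil markers could be tested, and their sums of 1.32 to 5.66 and 0.404 to 1.33 TPM overlapped. The part of these cells in the result was not tested.

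Receptors that beta-defensins can act on, and genes known to induce them, made up a list of 15, of which 14 could be tested and 6 were called, all higher in the hSKP2-KI mice. Of all genes tested, 33.9% were called and 32.7% were called higher. The median log2 fold change was 0.31, close to that of all genes. Ccr6, the chemokine receptor best known for binding beta-defensins, was at 0.155 TPM or less in every sample and was not tested. Ccr2 rose by 0.75, from 1.63 to 3.08 TPM in WT mice to 3.35 to 5.89 TPM in the hSKP2-KI mice (adjusted p = 0.00979, limma). The lipopolysaccharide receptor Tlr4 rose by 0.57 and the NF-kappaB subunit Rela by 0.32 (adjusted p = 0.0142 and 0.0175, limma). Nfkb1, another NF-kappaB subunit, rose by 0.26, the vitamin D receptor Vdr by 0.42 and the Toll-like receptor adaptor Myd88 by 0.29 (adjusted p = 0.019, 0.041 and 0.0416, limma). After median-ratio scaling 0 of the 14 were called by limma, and 4 had an unadjusted p under 0.05.

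**Figure D5:**
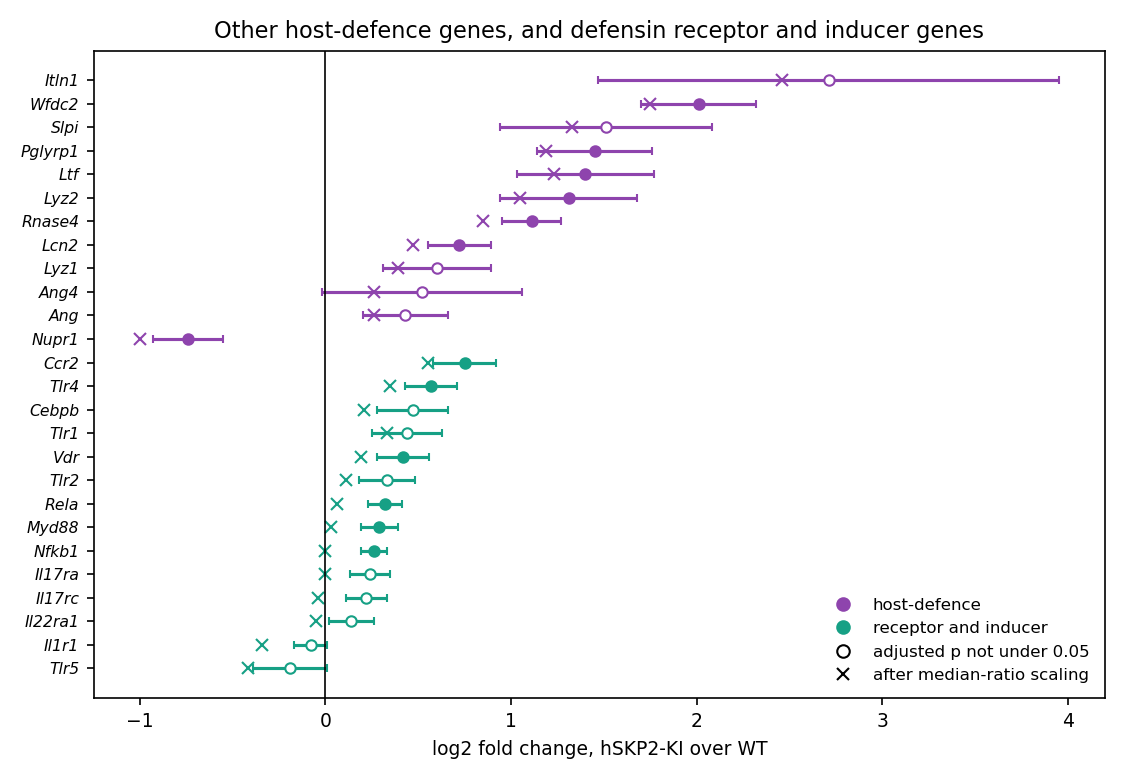
log2 fold change on the log2(TPM + 1) scale, hSKP2-KI over WT (n = 4 each), with the SE, of the tested genes of the host-defence list and of the receptor and inducer list; filled points have an adjusted p under 0.05 and crosses give the value after median-ratio scaling. The host-defence genes spread from -0.74 for Nupr1 to 2.71 for Itln1, which was not called (adjusted p = 0.106, limma), and the crosses of the receptor and inducer genes lie between -0.42 for Tlr5 and 0.55 for Ccr2.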

How the data were processed

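Ventral lobes of 8 mice were sequenced by the authors from poly-A-selected RNA with paired-end reads, which were trimmed, quality checked and aligned to the mouse genome with CLC software. The version, annotation and counting options are not given in the sources used here, and the builds named by the submitters' processing notes are mm10 and GRCm38. The authors deposited TPM for 36333 genes in 8 samples, with 0 columns from other samples. Multi-mapped reads could be split differently among similar members by another counting rule. Samples were grouped by the genotype in their labels. P-values measure the spread between these mice.

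log2(TPM + 1) was fitted with limma 3.58.1 (R 4.3.3) with a mean-variance trend over genes with at least 1 TPM in at least 4 of 8 samples, with Benjamini-Hochberg adjustment and a threshold of 0.05. The steps were tested on simulated data. The ratio of Defb50 to Defb1 was compared by a two-sided exact permutation test over 70 assignments. Sequences came from GENCODE transcripts and RefSeq tables of GRCm38 and were handled with Biopython 1.88. All 42 members matched by Entrez identifier. Every member above 0 TPM was named, those reaching 1 TPM with the value in every sample, and from the lists genes with an adjusted p under 0.05. Itln1, the marker genes, Defb3 and Ccr6 were named after their values were seen. The members, lists and tests were chosen with earlier results of these data known. Alternatives were a pseudocount of 0.1, no filter, a filter on the mean, median-ratio scaling, quantile normalization, a replicate block, leaving out each sample, and rescaling without the 20 most abundant genes. Protein sequences were not used here. Some marker genes are not reported here.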

Additional observations from a re-analysis of the deposited data

Results flagged for a closer look

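In 16 groups of 4 samples, formed by the 7 members with at least 1 TPM and the sum in each genotype, 2 held a sample far from the other 3, and about 1 group in 20 is marked in this way by chance. Defb29 was at 0.201 TPM in hSKP2-KI replicate 3 and listed at 0 in the other hSKP2-KI mice. Defb37 was at 0.507 TPM in hSKP2-KI replicate 1 and listed at 0 in the other hSKP2-KI mice. In both cases the outlying mouse was the one hSKP2-KI mouse in which the gene was detected. With the other 3 values at 0, any value above 0 is marked, so the rate of 1 group in 20 does not apply to these groups.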

How the results depend on the processing

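The number of genes called, 4433 with 4272 higher and 161 lower, fell to 1461 (905 and 556) after median-ratio scaling, 1317 (709 and 608) after quantile normalization and 1326 (888 and 438) after rescaling without the 20 most abundant genes. The median log2 fold change of all genes moved from 0.23 to -0.01, -0.03 and 0.01, and the summed log2 difference of the members from 0.61 to 0.34, 0.37 and 0.37. Under each of these 3 scalings 2 members were called instead of 3, Defb50 being lost (0.30, 0.35 and 0.32 on the log2 scale, adjusted p = 0.392, 0.0782 and 0.247, limma). Quantile normalization sets a value by rank, and Defb50 ranked 4th or 5th in every mouse. Its value there reflects that change of rank and is no separate check of its level. The counts under these scalings were 4, 4 and 4 host-defence genes, 0, 0 and 0 receptor and inducer genes by limma (unadjusted p under 0.05 for 4, 3 and 3) and 1, 1 and 1 cluster neighbours, the last 3 sets added after seeing the data. Counting members at 1 TPM in place of above 0 gave 7.

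Leaving out each sample gave 2993 to 4677 genes called, 2 to 3 members called, 6 to 8 host-defence, 4 to 7 receptor and inducer and 2 to 3 neighbour genes called, 17 to 20 members detected, and a summed log2 difference of 0.53 to 0.69. Defb50 ranged from 0.49 to 0.66, Defb1 from 0.93 to 1.12 and Defb28 from -2.48 to -2.0, and Defb1 and Defb28 were called in all 15 alternatives. Without hSKP2-KI replicate 1, in which Tgm4 was high, Defb50, Defb1 and Defb28 were at 0.62, 1.07 and -2.16 and stayed called. Lyz2 was not called without WT replicate 1, AY761184 without hSKP2-KI replicate 4 or WT replicate 1 or 3, Nfkb1 without hSKP2-KI replicate 4 (adjusted p = 0.0546), Vdr without hSKP2-KI replicate 2, 3 or 4 or WT replicate 1 or 4 (up to 0.104), and Myd88 without any sample but hSKP2-KI replicate 3 or WT replicate 2 (up to 0.103, limma). Nfkb1 turned from 0.26 to -0.00 after median-ratio scaling (adjusted p = 0.993, limma). With a pseudocount of 0.1 Defb28 was at -4.46. Same-numbered mice did not deviate together (r = 0.22, -0.11, 0.17 and -0.014), so the numbers were not taken as pairs. With a replicate block 5128 genes and 3 members were called. TPM gives no depth, so a listed 0 sets no upper limit.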

Other observations

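Several other peptide genes of host defence were listed at 0 or below 1 TPM. The 4 alpha-defensins Defa5, Defa20, Defa21 and Defa22 were listed at 0 in all 8 samples, and so were the cathelicidin Camp and the defensin-like Spag11a and Spag11b, while Defa24 was at 0.886 TPM in hSKP2-KI replicate 4 and listed at 0 elsewhere. Reg3g, a C-type lectin that binds bacteria, was at 0.115, 0.378, 0.105 and 0.192 TPM in hSKP2-KI replicates 1 to 4 and listed at 0 in all WT mice. It passed no filter and was picked after its values had been seen. Itln1, an intelectin that binds microbial sugars, varied most among mice of 1 genotype on this list, from 1.07 to 340 TPM in WT mice and from 137 to 871 TPM in the hSKP2-KI mice.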
